A study of Mus musculus with 34 samples.

Results

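The interleukin-1 genes Il1a, Il1b and Il1rn were searched for every ChIP-seq peak whose midpoint lay in the gene body or within 20 kb on either side. Of 596383 peaks in 30 lists, 430 met this rule. Peaks sharing at least 1 bp were merged into 62 elements out of 93024 loci in all. Il1a had 28 elements with 178 peaks, Il1b had 20 with 136 peaks, and Il1rn had 14 with 116 peaks. Elements are named by the distance of their centre from the annotated start of the gene, positive in the direction of transcription.

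The lists come from thioglycollate elicited macrophages (TGEMs), cells recruited to the peritoneum by an irritant and here collected after 3 days from male mice of 8 weeks. They were treated with PBS (Veh) or with 100 ng/mL Kdo2 lipid A (KLA), an agonist of TLR4, for 1 h. In C57BL/6 (labelled C57Bl/6EiJ), lists for the AP-1 monomers ATF3, Jun, JunD, Fos, FosL2 (labelled Fra2) and JunB and for PU.1 and CEBPa covered Veh and KLA, and 1 list held PPARg in Veh. BALB/cJ (labelled Balb/cJ) had the same monomers except FosL2 in Veh and KLA. TGEMs of C57BL/6 mice with the genotype PPARgKO had ATF3, Jun and JunD in Veh. All groups carry thioglycollate elicitation, and the knockout differs from wild type by the Pparg deletion, whose driver the labels do not give. The deletion could not be checked, since no PPARg list of the knockout was among the files used here.

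Il1a and Il1b encode interleukin-1 alpha and interleukin-1 beta, the agonists that signal through the type I interleukin-1 receptor and MyD88. Il1rn encodes the receptor antagonist, which occupies the same receptor without signaling. Macrophages induce these genes after TLR4 activation, and AP-1, a dimer of bZIP proteins, binds the TRE motif at many enhancers next to PU.1 and CEBP factors.

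On mm10 chromosome 2 (GENCODE vM21), Il1a (ENSMUSG00000027399.1) spans chr2:129299610-129309972 and Il1b (ENSMUSG00000027398.13) spans chr2:129364570-129371139, both on the minus strand. Il1rn (ENSMUSG00000026981.15) lies far from them on the plus strand at chr2:24336853-24351494. Centres of 34 of the 62 elements lay outside annotated genes. The noncoding genes Gm14023 and Il1bos overlap parts of Il1a and the start of Il1b.

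The sequences below belong to the element nearest each start and to the 7 elements with a peak in 20 or more lists, which are described in most detail. They are written 5′ to 3′ on the strand of the gene from the RefSeq copy of GRCm38 (mm10), and annotated UTR bases were left out. Capitals mark exact matches to a TRE (TGACTCA on either strand, which includes TGAGTCA) or to a PU.1 motif (GAGGAAGT).
Il1a start, chr2:129309973-129310172, minus strand: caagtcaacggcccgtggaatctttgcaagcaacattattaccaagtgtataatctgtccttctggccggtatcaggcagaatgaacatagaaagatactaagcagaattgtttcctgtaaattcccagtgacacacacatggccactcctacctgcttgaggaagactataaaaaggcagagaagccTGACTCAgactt
Il1a -10.3 kb, chr2:129320121-129320420, minus strand: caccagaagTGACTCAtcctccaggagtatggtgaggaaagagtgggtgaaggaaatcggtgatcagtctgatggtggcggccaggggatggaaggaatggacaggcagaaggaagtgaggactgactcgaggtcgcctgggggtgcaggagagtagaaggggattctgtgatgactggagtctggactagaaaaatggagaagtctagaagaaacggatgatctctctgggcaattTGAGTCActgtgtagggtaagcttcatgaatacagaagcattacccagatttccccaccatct
Il1a -18.4 kb, chr2:129328320-129328519, minus strand: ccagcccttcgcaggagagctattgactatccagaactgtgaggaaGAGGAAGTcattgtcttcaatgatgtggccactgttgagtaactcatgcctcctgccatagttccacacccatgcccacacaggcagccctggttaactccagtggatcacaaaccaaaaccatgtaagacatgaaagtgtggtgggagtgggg
Il1b -0.1 kb, chr2:129371174-129371373, minus strand: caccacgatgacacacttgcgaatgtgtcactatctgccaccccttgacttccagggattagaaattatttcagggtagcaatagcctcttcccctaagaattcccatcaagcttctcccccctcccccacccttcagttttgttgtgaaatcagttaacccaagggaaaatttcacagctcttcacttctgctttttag
Il1b -2.4 kb, chr2:129373411-129373610, minus strand: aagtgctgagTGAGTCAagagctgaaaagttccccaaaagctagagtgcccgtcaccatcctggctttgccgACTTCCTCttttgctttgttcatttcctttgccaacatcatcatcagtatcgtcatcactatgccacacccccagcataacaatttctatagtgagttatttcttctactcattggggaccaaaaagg
Il1b +10.8 kb, chr2:129360229-129360428, minus strand: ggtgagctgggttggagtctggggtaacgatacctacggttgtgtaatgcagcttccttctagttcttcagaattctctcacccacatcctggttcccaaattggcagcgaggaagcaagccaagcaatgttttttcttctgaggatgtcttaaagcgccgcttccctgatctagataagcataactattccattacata
Il1rn -0.1 kb, chr2:24336653-24336852, plus strand: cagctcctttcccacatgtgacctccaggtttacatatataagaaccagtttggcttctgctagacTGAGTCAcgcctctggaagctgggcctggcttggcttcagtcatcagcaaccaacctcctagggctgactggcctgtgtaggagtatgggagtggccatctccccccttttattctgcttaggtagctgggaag
Il1rn +4.7 kb, chr2:24341503-24341702, plus strand: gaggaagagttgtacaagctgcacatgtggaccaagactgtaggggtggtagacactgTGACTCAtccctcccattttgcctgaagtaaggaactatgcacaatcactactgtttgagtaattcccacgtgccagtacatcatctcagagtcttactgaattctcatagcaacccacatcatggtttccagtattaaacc
Il1rn +8.4 kb, chr2:24345176-24345287, plus strand: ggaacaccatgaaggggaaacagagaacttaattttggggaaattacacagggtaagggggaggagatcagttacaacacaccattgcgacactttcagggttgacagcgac

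A TRE lay at -12 bp from the start of Il1a and another at -134 bp from that of Il1rn. A TRE in the 200 bases before the start was present at 3.66% of 32851 RefSeq promoters. At Il1b -2.4 kb a TRE (-2461 bp) and a PU.1 match (-2399 bp) lay in the same window. The window at Il1a -10.3 kb held 2 TREs, at -10439 and -10211 bp. The windows at Il1b -0.1 kb, Il1b +10.8 kb and Il1rn +8.4 kb held none of the letters searched, which says nothing on the binding of a factor there.

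Over all 62 elements the central 200 bp held a TRE in 11, or 17.7%, against 18.8% of all loci. The CRE (TGACGTCA) was found in 0 elements against 1.06% of loci, and a DR1, the repeat bound by PPARg and RXR, in 0 against 0.0818%. A composite AP-1/CEBP motif (TGATGCAA) was present in 2 elements, at Il1a -5.1 and -6.0 kb (1.85% of loci). CEBP (TTGCNNAA) was present in 7 (14.5% of loci), PU.1 in 5 (11.2%) and IRF, a pair of GAAA repeats, in 2 (3.80%). The kB motif of NF-kB was found in 4 elements (3.50% of loci), of which 2, at Il1b -9.8 kb and Il1rn +22.7 kb, had a narrower form with a run of T (0.755%). All motifs were searched on both strands, and the AP-1 matches of the elements as a whole were about as frequent as at loci elsewhere.

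The Il1a window was among the densest in the genome for binding. It held 5.56 loci per 10 kb, more than 99.9% of 21951 protein-coding genes with the same flanks, against a median of 0.515. Il1b held 4.29 loci per 10 kb (more than 99.6% of genes) and Il1rn 2.56 (95.7%). Of the 62 elements, 17 had a peak in 10 or more lists (25.1% of all loci), 7 in 20 or more (6.89%) and 19 in 1 list only (27.3%). Because each condition has 1 list for its replicate experiments, no spread between replicates is available and none of the comparisons has a test. A count is the number of tags of a peak as deposited, unscaled for depth, so counts are read within a list by rank, given as a percentage of that list with the strongest peak first.

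**Figure D1:**
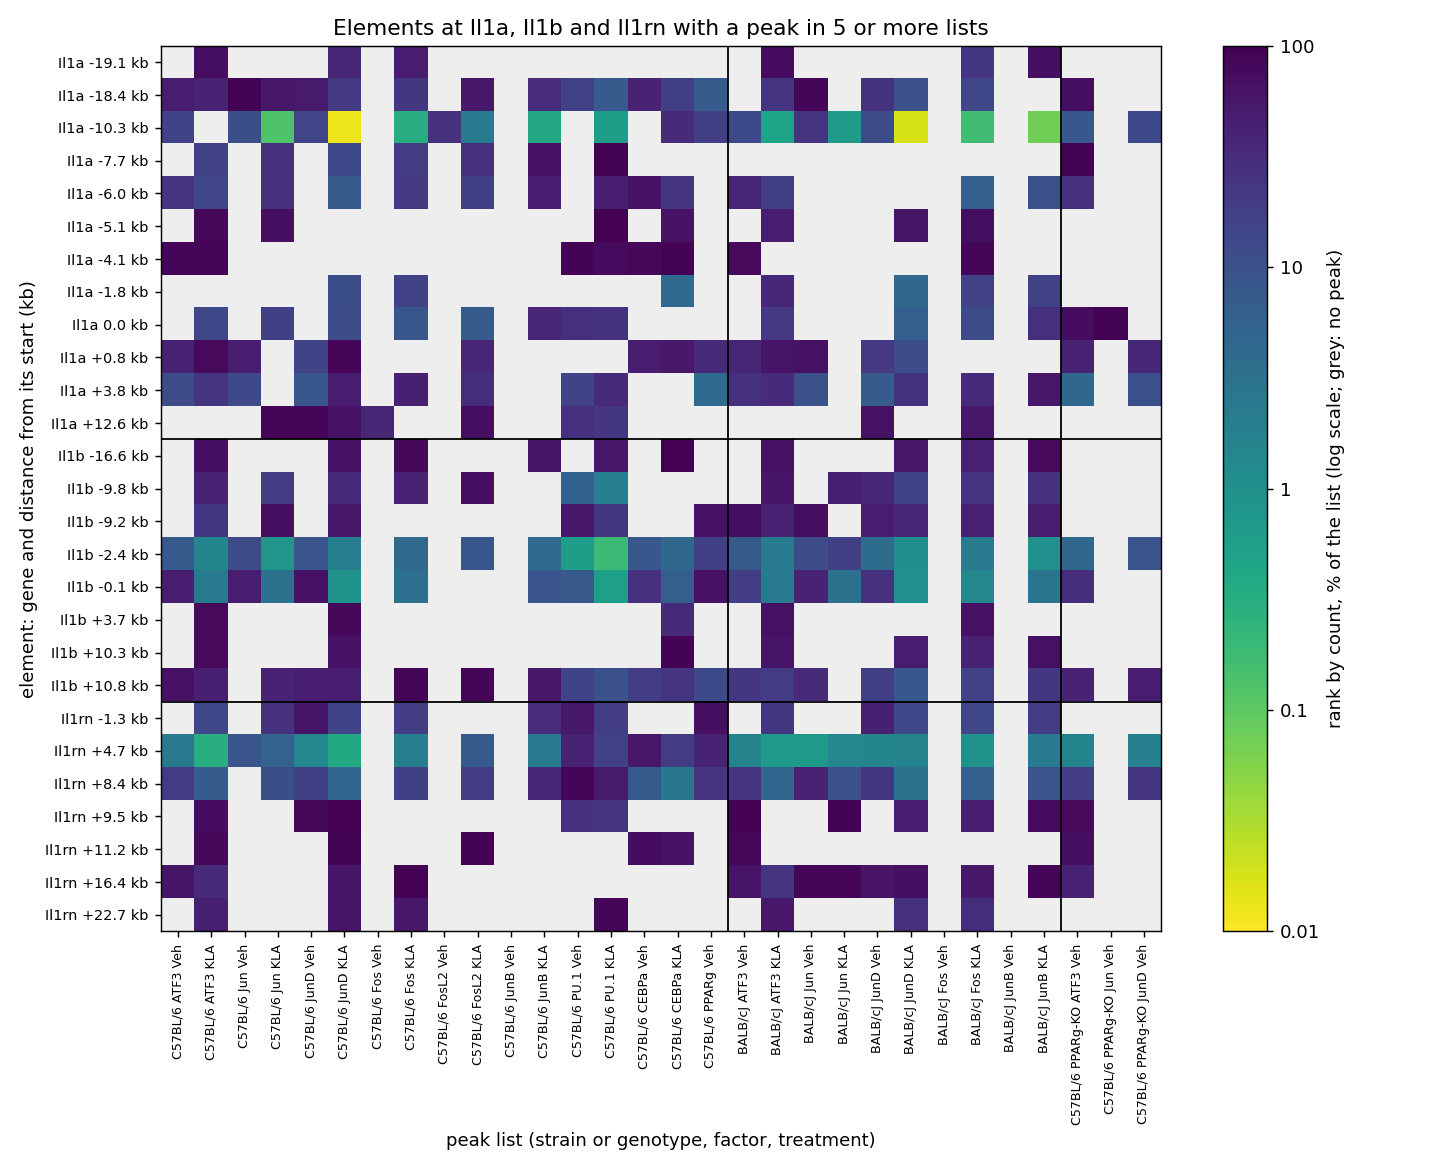
Rank by count, as a percentage of the list on a log scale (yellow strongest, grey no peak), for the elements with a peak in 5 or more lists (rows) in each of the 30 lists (columns, black lines between strains and genotypes). Il1a -10.3 kb reached 0.0126% in JunD KLA of C57BL/6 and 0.0177% in BALB/cJ, and Il1rn +4.7 kb ranked within the first 10% of every AP-1 list with a peak there.

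In C57BL/6 more elements carried AP-1 after KLA than in Veh. An AP-1 peak of at least 1 of the 6 monomers was present at 39 elements. Of these, 23 had AP-1 in KLA only, against 38.0% of all AP-1 loci, 15 in both treatments (49.0% of loci), and 1, Il1rn -18.6 kb, in Veh only (12.9%). All 6 monomers had a KLA peak at 8 elements, of 38 with an AP-1 KLA peak (13.9% of KLA loci). These were the Il1a start and Il1a -6.0, -7.7 and -18.4 kb, Il1b -2.4 and +10.8 kb, and Il1rn +4.7 and +8.4 kb. KLA-only elements numbered 11 at Il1a, 7 at Il1b and 5 at Il1rn.

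By monomer, JunD had 31 elements in C57BL/6, with 19 in KLA only (45.4% of JunD loci), 12 in both (42.5%) and 0 in Veh only (12.1%). ATF3 had 15 in KLA only (43.7%), 11 in both (45.7%) and 2 in Veh only (10.6%). Jun had 11 in KLA only (35.3%), 5 in both (37.3%) and 2 in Veh only (27.3%). FosL2 had 16 in KLA only (60.0%), 1 in both (19.7%) and 0 in Veh only (20.3%). Fos had 21 in KLA only (92.8%), 0 in both (4.36%) and 1 in Veh only (2.83%). JunB had 13 in KLA only (96.6%), 0 in both (1.8%) and 0 in Veh only (1.6%). For Fos and JunB the members thus followed their lists, in which few Veh peaks exist at all, whereas the KLA-only shares of ATF3, Jun, JunD and FosL2 stood above the background of their lists. Except for PU.1, the lists of KLA are longer than those of Veh. An alternative with both lists at the same number of strongest peaks was summed over the 6 monomers, PU.1 and CEBPa together. The KLA-only elements then numbered 58 in place of 114, and the Veh-only elements 12 in place of 6. No share of all loci at equal length stands beside this sum, which pools lists cut to very different lengths (463 peaks for JunB). Whether the KLA-only shares of ATF3, Jun, JunD and FosL2 stay above background at equal length was not tested.

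In BALB/cJ JunD also had a KLA-only share above its background, with 21 elements in KLA only (35.9% of loci), 13 in both (39.9%) and 1 in Veh only (24.2%). ATF3 had 14 in KLA only (51.8%), 11 in both (39.1%) and 4 in Veh only (9.1%). The KLA-only share of ATF3, at 48.3%, was below that background. Jun had 2 elements in KLA only (34.8%), 6 in both (32.6%) and 5 in Veh only (32.6%). Fos and JunB could not be compared between treatments in BALB/cJ, where Fos has 0 peaks and JunB 9 peaks in Veh.

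**Figure D2:**
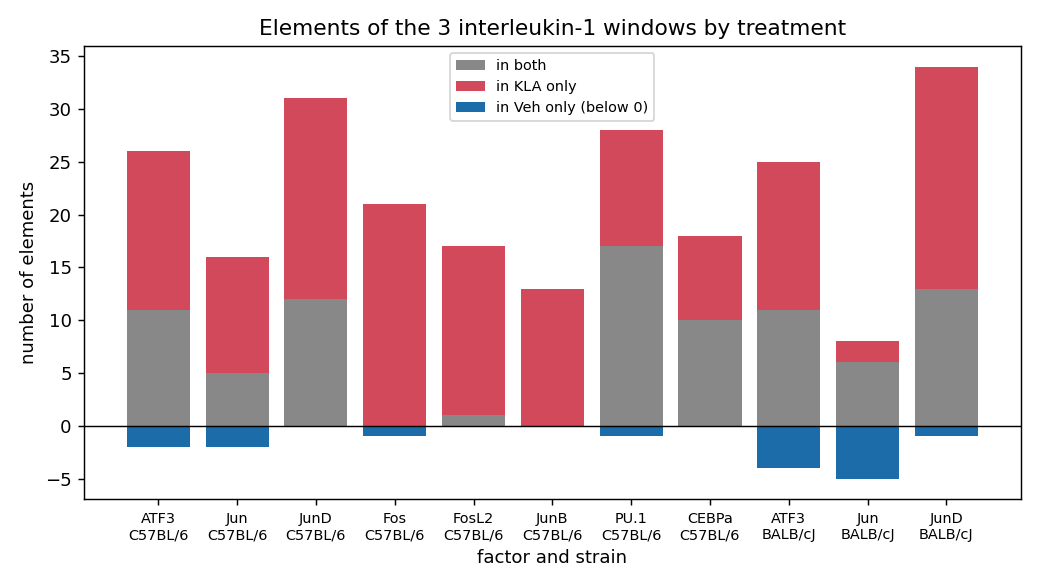
Number of elements of the 3 windows (vertical axis) with a peak in both treatments (grey), in KLA only (red) and in Veh only (blue, drawn below 0) for each factor and strain. KLA-only elements outnumber Veh-only elements in 10 of the 11 comparisons, and in Jun of BALB/cJ 2 stand against 5. Over all loci of the same lists the KLA-only share is also the larger in all but PU.1 (19.5% against 21.2%). For Jun of BALB/cJ it is 34.8% against 32.6%.

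Where a factor had a peak in both treatments, the log2 ratio of its counts (KLA over Veh) was centred on the median ratio over all loci shared by the same lists. That median was 0.62 for ATF3, 0.17 for Jun, 2.54 for JunD, 1.17 for FosL2, -2.01 for PU.1 and -0.12 for CEBPa in C57BL/6, and it reflects unscaled counts. Values below are differences from this median, with a 95% exact binomial interval that covers counting error only. The median centred ratio over members was 0.94 for Jun (5 elements), 0.22 for ATF3 (11), 0.32 for JunD (12), 0.37 for PU.1 (17) and 0.32 for CEBPa (10), beside 0 over all shared loci by construction. Centred on the ratio of summed counts instead, ATF3 and JunD turned to -0.24 and -0.28.

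**Figure D3:**
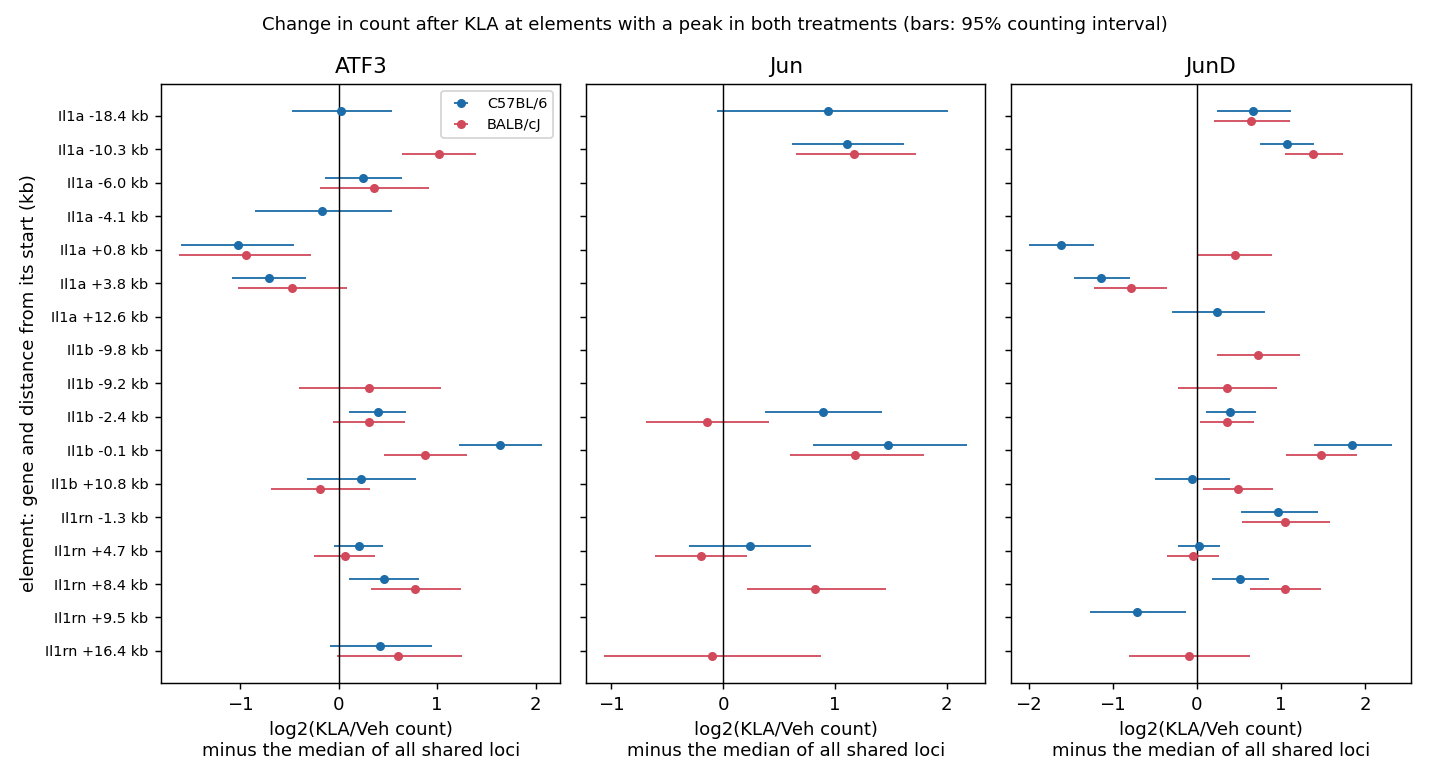
Centred log2 ratio of KLA over Veh counts (horizontal axis, 0 is the median of all shared loci) for ATF3, Jun and JunD at each element with a peak in both treatments (rows), with C57BL/6 in blue, BALB/cJ in red and bars for the 95% counting interval. Il1b -0.1 kb lies furthest to the right in C57BL/6, at 1.63 for ATF3, 1.47 for Jun and 1.84 for JunD, and Il1a +3.8 kb lies left of 0 for ATF3 and JunD in both strains.

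The element at Il1a -10.3 kb (chr2:129319927-129320523, intergenic) had the highest single rank of any member, for JunD in KLA of C57BL/6. It was not the highest in every list. Il1rn +4.7 kb ranked above it for ATF3, Jun and JunD in Veh of C57BL/6, and Il1b -2.4 kb for PU.1 in KLA. JunD there had a count of 89 in Veh (rank 2858 of 19653) and 1086 in KLA (rank 4 of 31640). In BALB/cJ the JunD counts were 96 in Veh and 282 in KLA, the latter at rank 6 of 33850. The element therefore stood near the top of the JunD KLA list of both strains. Jun rose in rank from 10.8% (count 49) to 0.126% (count 119) in C57BL/6 and from 25.4% (42) to 0.619% (112) in BALB/cJ.

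Fos, which had no Veh peak at Il1a -10.3 kb, had a KLA count of 229 in C57BL/6 (rank 0.320%) and 383 in BALB/cJ (0.168%). JunB, also without a Veh peak, had 136 (0.389%) and 220 (0.0738%). The Veh lists of Fos and JunB, with 1804 and 463 peaks in C57BL/6 and 0 and 9 in BALB/cJ, are too short to show a gain. FosL2 counts were 30 in Veh and 117 in KLA. Fos, JunB and FosL2 (2.21%) were all within the first few percent of their KLA lists.

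The centred ratio at Il1a -10.3 kb was 1.07 for JunD (0.75 to 1.40) and 1.11 for Jun (0.62 to 1.62) in C57BL/6, and 1.38 (1.05 to 1.73) and 1.17 (0.65 to 1.72) in BALB/cJ. FosL2 was at 0.79 (0.20 to 1.42), or at -0.0391 when centred on the ratio of summed counts. ATF3 was the exception among the monomers. It had a Veh count of 111 in C57BL/6 and no KLA peak, and the nearest ATF3 KLA peak lay 1.31 kb from the element. In BALB/cJ its counts were 78 in Veh and 255 in KLA (centred 1.01, 0.64 to 1.40).

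PU.1, the macrophage lineage factor, had no Veh peak at Il1a -10.3 kb and a KLA count of 309, rank 241 of 40645 (0.593%). CEBPa likewise had no Veh peak and 2 KLA peaks in the element, with counts of 90 and 86. PPARg had a Veh count of 71 (18.3%). PU.1 and CEBPa were thus found there in KLA only.

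For 4 of the 6 AP-1 pairs of lists with a peak in both treatments, the centre of this element moved by 153.0 to 235.5 bp between Veh and KLA. The 9 AP-1 peaks of Veh in all strains and genotypes had a median centre at -10203 bp, and the 10 of KLA at -10393.5 bp. The TRE at -10211 bp was close to the former and the TRE at -10439 bp closer to the latter. In BALB/cJ the centre moved by 235.5 bp for ATF3, 231.0 bp for Jun and 178.0 bp for JunD. These shifts exceeded those of 99.8%, 99.8% and 98.9% of the loci shared by the same lists, whose median shifts were 21.5, 25.5 and 22.0 bp. Jun of C57BL/6 moved by 153.0 bp, more than 98.5% of its shared loci. FosL2 moved by 47.5 bp (more than 66.4% of its shared loci, whose median was 31.75 bp). JunD of C57BL/6 moved by 8.5 bp, with peaks of 335 bp in Veh and 404 bp in KLA that span much of the element. The single PU.1 peak (-10150 bp) and the PPARg peak (-10176 bp) were centred on the Veh side, and the 2 CEBPa peaks were 1 on each side, at -10121 and -10417 bp. Called at an overlap of 1 bp, the element counts as present in both treatments although the peaks are partly side by side.

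At the Il1a start, AP-1 was found in wild-type C57BL/6 in KLA only, with counts of 164 for ATF3, 49 for Jun, 567 for JunD, 120 for Fos, 96 for FosL2 and 40 for JunB. In BALB/cJ the KLA counts were 80 for ATF3, 138 for JunD, 167 for Fos and 62 for JunB. Ranks ranged from 6.32% (JunD of BALB/cJ) to 36.8% (JunB of C57BL/6). The 10 KLA peaks were centred between 64 bp before and 2 bp after the start, at a median of -36.5 bp, next to the TRE at -12 bp. PU.1 peaks were centred apart from them, at -255 bp in both treatments, with counts of 400 in Veh and 100 in KLA (centred 0.01, -0.32 to 0.33). In PPARg-KO cells in Veh, ATF3 (20, centred at -243 bp) and Jun (12, at -438 bp) had peaks in the same element, centred upstream of the KLA peaks. The rank of PU.1 was 27.5% in Veh and 26.1% in KLA.

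The elements at +3.8 and +0.8 kb inside Il1a had AP-1 in both treatments. At Il1a +3.8 kb, an intron of Il1a that is also an exon of the antisense gene Gm14023, ATF3 counts were 127 in Veh and 120 in KLA and JunD counts 107 and 284. Their ranks moved from 11.7% to 24.9% and from 8.42% to 48.3%. The centred ratios were -0.71 (-1.08 to -0.33) for ATF3 and -1.13 (-1.46 to -0.80) for JunD, the latter lower than all but 1.61% of shared loci. BALB/cJ gave -0.47 (-1.02 to 0.09) and -0.79 (-1.22 to -0.36). Jun had a Veh peak in both strains, with counts of 46 and 59, and a KLA peak in neither.

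At Il1a +0.8 kb, in an intron, JunD counts were 88 in Veh and 168 in KLA in C57BL/6, a centred ratio of -1.61 (-1.99 to -1.22). In BALB/cJ JunD counts were 73 and 112 (0.45, 0.01 to 0.89, or 0.18, -0.26 to 0.62, on summed counts), in peaks of 245 and 424 bp. ATF3 was at -1.02 (-1.60 to -0.45) in C57BL/6 and -0.95 (-1.62 to -0.28) in BALB/cJ. Jun again had Veh peaks only, with a count of 25 in each strain. Jun was therefore in Veh only at both intronic elements in both strains. PPARg had counts of 162 at +3.8 kb, its strongest member peak (3.95%), and 50 at +0.8 kb.

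Upstream, Il1a -18.4 kb carried 20 lists, with JunD counts of 49 in Veh and 452 in KLA (centred 0.66, 0.24 to 1.12, or 0.06, -0.36 to 0.52, on summed counts) and a PPARg count of 122 (6.96%). PU.1 counts there were 521 and 184 (centred 0.51, 0.26 to 0.75). Il1a -6.0 kb, which holds the AP-1/CEBP composite, had ATF3 in Veh (87) and all 6 monomers in KLA, JunD with 640 (7.21%). CEBPa counts at this element were 61 in Veh and 108 in KLA, a centred ratio of 0.95 (0.48 to 1.42).

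Il1b was bound by all families of factors just before its start and at -2.4 kb. At Il1b -0.1 kb (chr2:129370963-129371449), C57BL/6 counts in Veh and KLA were 58 and 277 for ATF3, 25 and 78 for Jun, and 42 and 876 for JunD. The ranks moved from 47.1% to 2.29%, from 49.9% to 3.15% and from 64.8% to 0.929%. Centred ratios were 1.63 (1.22 to 2.07), 1.47 (0.81 to 2.18) and 1.84 (1.39 to 2.32), higher than those of 98.8%, 98.8% and 99.7% of shared loci. In BALB/cJ they were 0.87 (0.46 to 1.30), 1.18 (0.60 to 1.79) and 1.47 (1.06 to 1.90). All 6 intervals lay above 0, but on summed counts that of ATF3 in BALB/cJ, at 0.26 (-0.15 to 0.69), included it.

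Fos and JunB had KLA peaks at Il1b -0.1 kb, with counts of 155 (3.49%) and 72 (8.96%) in C57BL/6 and 300 (1.42%) and 140 (2.85%) in BALB/cJ. Their Veh lists, with 1804 and 463 peaks in C57BL/6 and 0 and 9 in BALB/cJ, are too short to show a gain. FosL2 had no peak there. PU.1 counts were 705 in Veh and 312 in KLA, ranks of 7.76% and 0.558% (centred 0.83, 0.63 to 1.03). CEBPa counts were 110 and 178 (centred 0.82, 0.47 to 1.17). AP-1 peaks of KLA were centred at a median of -168 bp and those of Veh at -103 bp, whereas PU.1 (-47 and -67 bp) and CEBPa (-69 and -80 bp) lay nearer the start.

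At Il1b -2.4 kb (chr2:129373267-129373739, in an exon of Il1bos), binding was already strong in Veh. PU.1 counts were 1099 in Veh (0.563%) and 354 in KLA (0.189%), the highest of any PU.1 member in either treatment. ATF3 counts were 150 and 304, Jun 47 and 98, and JunD 105 and 806 in C57BL/6, all within the first 12.3% of their lists. The centred ratio of Jun was 0.89 (0.37 to 1.42), while ATF3 was at 0.40 (0.11 to 0.69) and JunD at 0.40 (0.10 to 0.71). With the ratio of summed counts as centre these became -0.07 for ATF3 and -0.20 for JunD. In BALB/cJ Jun counts were 56 and 60, a centred ratio of -0.14 (-0.69 to 0.41). CEBPa (177 and 192) was centred closer to the start than AP-1, at -2248 bp in Veh and -2237 bp in KLA, against a median of -2369 bp for AP-1 in KLA.

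The other Il1b elements were weaker for AP-1. Il1b -9.8 kb had JunD of BALB/cJ as its only AP-1 peak in Veh (55), and in KLA all BALB/cJ monomers and all but JunB of C57BL/6. PU.1 counts were 765 (5.75%) and 258 (1.90%) there, and its sequence holds a PU.1 match and the narrower kB match. Il1b -9.2 kb had PU.1 counts of 235 and 110 (centred 0.91, 0.57 to 1.24). Il1b +10.8 kb carried 22 lists, at ranks from 7.85% (JunD KLA of BALB/cJ) to 85.2% (Fos KLA of C57BL/6). JunD of C57BL/6 was at 52 and 290 there (centred -0.06, -0.49 to 0.39).

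Il1rn had its main element inside the gene rather than at its annotated start. At Il1rn +4.7 kb (chr2:24341449-24341783, intron), AP-1 was near the top of the lists in both treatments. ATF3 counts were 210 in Veh (2.19%) and 372 in KLA (0.302%), JunD 160 (1.35%) and 946 (0.367%), and Jun 52 (8.90%) and 69 (5.54%) in C57BL/6. In BALB/cJ they were 141 and 238 for ATF3, 170 and 185 for JunD, and 100 and 103 for Jun, all within the first 1.65% of their lists. The centred ratio was 0.02 (-0.22 to 0.27) for JunD, 0.20 (-0.05 to 0.45) for ATF3 and 0.24 (-0.30 to 0.79) for Jun in C57BL/6. With the median as centre, each of the 6 intervals of both strains included 0, which depended on the centre. On summed counts the C57BL/6 values became -0.58 for JunD and -0.26 for ATF3, both with intervals below 0, and -0.01 for Jun. Fos, FosL2 and JunB had KLA counts of 174, 95 and 101. PU.1 (296 and 130) and CEBPa (70 and 117) had intervals above 0, at 0.82 (0.51 to 1.12) and 0.86 (0.42 to 1.31).

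At Il1rn +8.4 kb, JunD counts were 83 in Veh and 689 in KLA (centred 0.51, 0.18 to 0.86, or -0.09 on summed counts) and CEBPa counts 182 and 221, its best rank among members (2.67% in KLA). JunD of BALB/cJ went from 70 to 163 (1.05, 0.64 to 1.47). Il1rn -1.3 kb had JunD in Veh at 45 and 46 in C57BL/6 and BALB/cJ, and had ATF3 (161 and 79) in KLA only in both strains. Fos (89 and 156) and JunB (44 and 73) had KLA peaks there in both strains. Their Veh lists of BALB/cJ, with 0 and 9 peaks, allow no comparison of treatments. The element at Il1rn -0.1 kb, despite the TRE at -134 bp, had a peak in 4 lists only, ATF3 and Fos in KLA. Its counts were 37 and 29 in C57BL/6 and 40 and 67 in BALB/cJ, at ranks of 93.9%, 89.7%, 55.2% and 48.0%. The 3 annotated gene starts thus differed, with Il1b at the highest ranks, Il1a next and Il1rn at the lowest. This covers only the outermost start of each gene. Annotated UTR bases also lie at Il1rn +8.4 kb, and the starts of single transcripts were not examined.

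**Figure D4:**
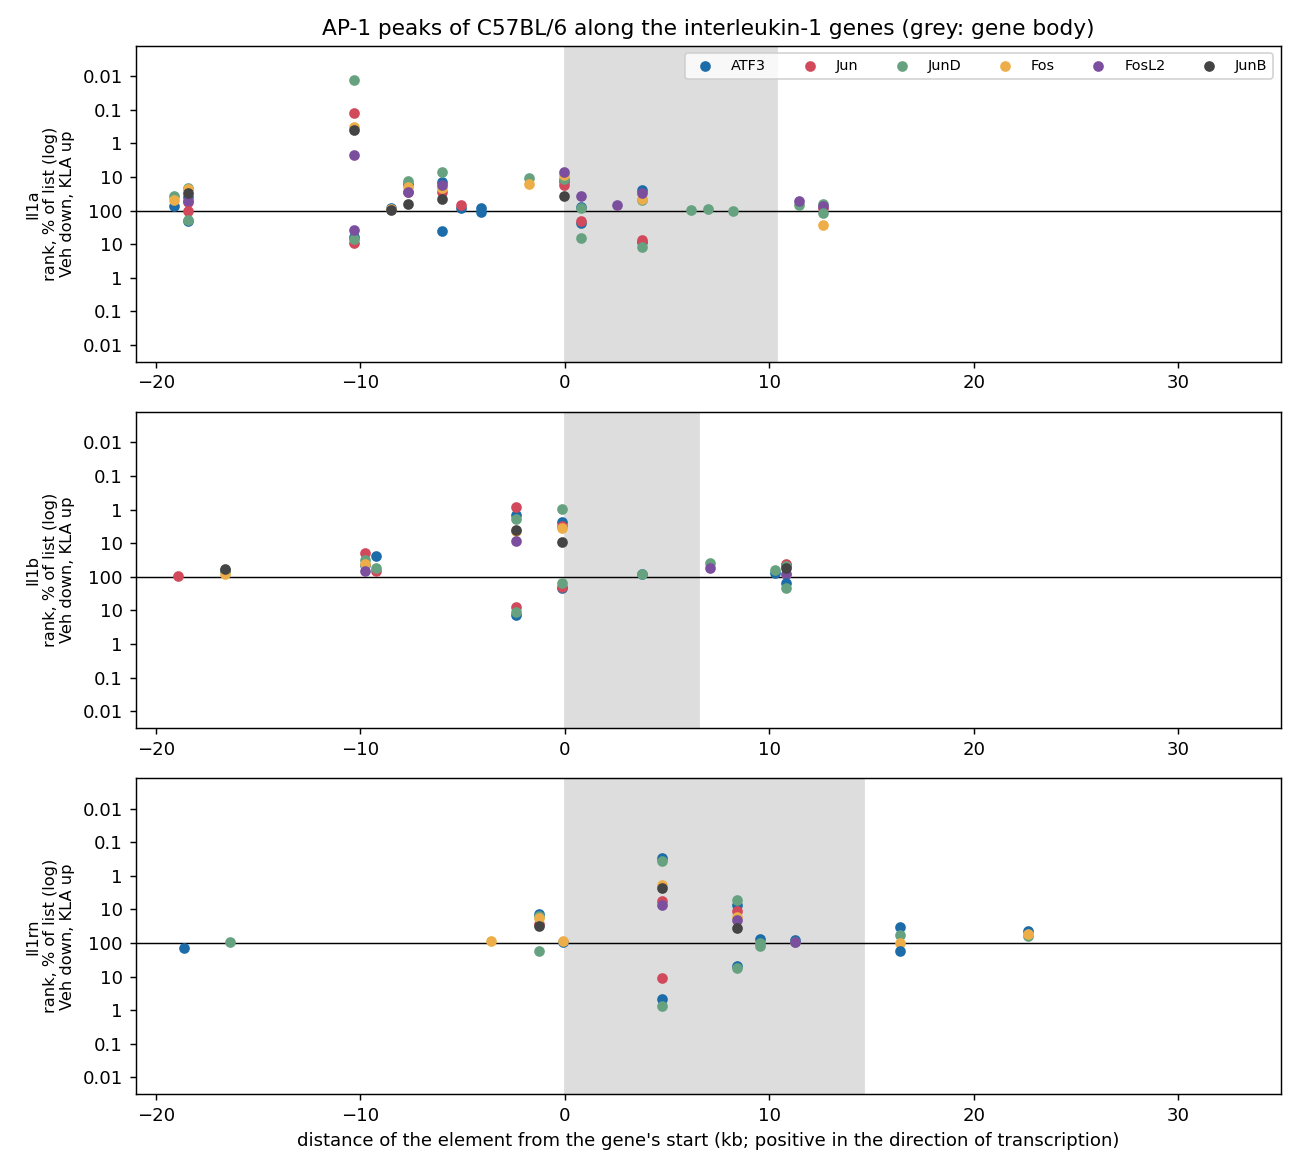
Position of each AP-1 peak of C57BL/6 by the centre of its element (horizontal axis, kb from the start) and its rank as a percentage of the list (vertical log axis, KLA upward and Veh downward, stronger peaks further from the line), colored by monomer, with the gene body in grey. Il1a -10.3 kb stands out in KLA at 0.0126% for JunD, while Il1rn +4.7 kb is high on both sides of the line.

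PU.1 was present at 29 elements in C57BL/6, 17 in both treatments (59.3% of PU.1 loci), 11 in KLA only (19.5%) and 1 in Veh only (21.2%). Of the KLA-only elements 7 lay at Il1a. Apart from Il1a -10.3 kb, their counts ranged from 27 to 66, at ranks of 46.1% to 97.9%. CEBPa peaks were in both treatments at 10 sites (47.9%), in KLA only at 8 (31.2%, 2 of them in Il1a -10.3 kb) and in Veh only at 0 (21.0%). The strongest of its KLA-only peaks was at Il1a -1.8 kb, with a count of 201 (4.05%). There AP-1 was represented by JunD and Fos in KLA in C57BL/6, with counts of 572 and 94, and by ATF3, JunD, Fos and JunB in BALB/cJ.

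Of the 38 elements with an AP-1 KLA peak in C57BL/6, 22 had PU.1 in KLA (53.2% of AP-1 KLA loci) and 17 had CEBPa (29.2%). Of the 16 with an AP-1 Veh peak, 12 had PU.1 (57.4%), 9 CEBPa (31.7%) and 10 PPARg (59.1%). PPARg had 12 elements in all. No AP-1 peak of either strain was found at 6 elements (30.3% of all loci), 5 of them with PU.1 and Il1a -15.8 kb with PPARg alone (count 39).

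Inside the bodies of Il1a and Il1b, JunD in KLA formed rows of peaks. All 11 elements with a centre in the Il1a body had a JunD KLA peak in at least 1 strain, 5 in C57BL/6 and 8 in BALB/cJ with 2 in both, and 6 had no peak in any other list. At Il1b 5 of the 6 elements in the body had a JunD KLA peak, 1 in C57BL/6 and 4 in BALB/cJ with 0 in both, and 4 were in that list alone. JunD in Veh was at 2 Il1a elements in each strain and at 0 of Il1b. FosL2 in KLA of C57BL/6, in a list of 10619 peaks, had 4 peak midpoints in the Il1a body, against 5 for JunD in a list of 31640. In the Il1b body FosL2 had 0 and JunD 1. Many peaks in the Il1a body were thus not particular to JunD in C57BL/6. Ranks of the C57BL/6 peaks at Il1a +6.2, +7.0 and +8.2 kb were 99.1%, 90.8% and 99.6%, close to the lowest counts of the list. In BALB/cJ the Il1a +1.5, +2.0 and +5.4 kb peaks had counts of 64, 56 and 47, at ranks of 34.7%, 41.5% and 51.5%.

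Per kb of gene body, JunD KLA peaks were denser at Il1a than at 99.6% of protein-coding genes in C57BL/6 and 99.7% in BALB/cJ. For Il1b the values were 95.9% and 99.5%, and for Il1rn 98.5% and 96.7%. The C57BL/6 list of JunD in KLA has by far the largest sum of counts of the AP-1 lists (10395306, against 2097197 in BALB/cJ), and the part of depth in these peaks was not tested. Without both JunD KLA lists, an alternative chosen after the data were seen, 52 of the 62 elements were left.

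An AP-1 peak was present in both strains at 32 elements (64.6% of AP-1 loci of either strain), in BALB/cJ only at 17 (24.7%) and in C57BL/6 only at 7 (10.8%). Of the BALB/cJ-only elements 11 rested on 1 list and 12 had a JunD KLA peak. For JunD in KLA 20 elements were in both strains (55.6% of loci), 11 in C57BL/6 only (19.6%) and 14 in BALB/cJ only (24.8%). For Fos in KLA the counts were 19 in both (50.6%), 2 in C57BL/6 only (6.02%) and 17 in BALB/cJ only (43.4%), and for JunB 9 (43.3%), 4 (11.4%) and 11 (45.3%). ATF3 in KLA shared 21 (61.8%), with 5 in C57BL/6 only (19.0%) and 4 in BALB/cJ only (19.2%).

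Jun in KLA had 6 elements in both strains (39.2%), 10 in C57BL/6 only (45.3%) and 2 in BALB/cJ only (15.5%), an order that its lists show over all loci. In Veh Jun was in both strains at 7 elements (39.9%), in BALB/cJ only at 4 (18.0%) and in C57BL/6 only at 0 (42.2%). ATF3 in Veh was shared at 11 (52.0%), with 2 in C57BL/6 only (30.5%) and 4 in BALB/cJ only (17.5%). JunD in Veh was shared at 11 (44.5%), with 1 in C57BL/6 only (14.3%) and 3 in BALB/cJ only (41.2%).

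Il1a -7.7 kb, chosen after its values were seen, had the best AP-1 rank of the 7 elements with AP-1 in C57BL/6 only. All 6 monomers had a KLA peak there, with counts of 149 for ATF3, 41 for Jun, 542 for JunD, 87 for Fos, 63 for FosL2 and 28 for JunB. No list of BALB/cJ had a peak at this element, which holds a TRE in its central 200 bp. JunD ranked at 12.9% and ATF3 at 16.7% of their lists.

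Over the 20 shared JunD KLA elements, counts in BALB/cJ over C57BL/6, centred on the median of -2.33 over all shared loci, had a median of 0.35, and 17 of the 20 were positive. In 12 the counting interval lay above 0 (15.2% of the shared loci) and in 0 below it (12.5%). The highest were Il1a +0.8 kb at 1.74 (1.39 to 2.10, above 99.97% of shared loci) and Il1b +10.8 kb at 1.16 (0.85 to 1.46, above 99.4%). At Il1a +0.8 kb the JunD KLA peak was 424 bp wide in BALB/cJ and 280 bp in C57BL/6. The part of this width in the ratio was not tested. The lowest was Il1rn +16.4 kb at -0.45 (-0.996 to 0.06). In Veh, the 11 shared JunD elements had a median of -0.04, and 0 intervals lay above 0 (7.68% of shared loci) or below it (6.48%). At Il1b +10.8 kb the same ratio was 1.35 (0.78 to 1.96) for Fos in KLA, 0.75 (0.29 to 1.21) for ATF3 in KLA and 1.13 (0.54 to 1.72) for ATF3 in Veh. JunB in KLA, at 0.51 (-0.12 to 1.16), and JunD in Veh, at 0.51 (-0.007 to 1.04), had intervals that included 0. Jun in KLA had a peak there in C57BL/6 only (34).

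In PPARg-KO TGEMs in Veh, ATF3 had a peak at 11 of its 13 wild-type elements, against 78.2% of all its wild-type loci. JunD had 7 of 12, against 53.5% of all its wild-type loci. Jun had 0 of 7, against 21.8% of all its wild-type loci. Of wild-type or knockout Jun loci, 73.9% were in wild type only. The single Jun peak of the knockout was at the Il1a start, with a count of 12 (96.0%) and a centre at -438 bp (5.48% of loci in the knockout only). The knockout list of Jun is short, with 4290 peaks against 15548 in wild type, and the part of its length in this difference was not tested.

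ATF3 was in both genotypes at 11 elements (54.3%), in wild type only at 2 (15.1%) and in the knockout only at 4 (30.6%). JunD was in both at 7 (36.9%), in wild type only at 5 (32.1%) and in the knockout only at 0 (31.0%). The JunD elements without a knockout peak included Il1b -0.1 kb (42 in wild type) and Il1a -18.4 kb (49), and 0 of the 7 shared elements had a centred ratio above 0, or 4 when centred on summed counts. At Il1rn +4.7 kb the wild-type and knockout counts were 210 and 139 for ATF3 and 160 and 139 for JunD, with centred ratios of 0.07 (-0.25 to 0.39) and -0.0005 (-0.34 to 0.34). Jun, with 52 in wild type, had no peak there in the knockout. At Il1a -10.3 kb counts were 111 and 86 for ATF3 and 89 and 77 for JunD. The lowest centred ratios were -0.75 (-1.55 to -0.0036) for ATF3 at Il1a -18.4 kb, with 56 and 21, and -0.80 (-1.35 to -0.26) for JunD at Il1a +0.8 kb, with 88 and 44.

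PPARg, a nuclear receptor that heterodimerizes with RXR, had a peak at 7 of the 7 Jun Veh elements of C57BL/6, against 67.1% of all Jun Veh loci. These were Il1a +3.8, +0.8, -10.3 and -18.4 kb, Il1b -0.1 and -2.4 kb and Il1rn +4.7 kb, with PPARg counts from 28 to 162.

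Among 25 other genes of the interleukin-1 family and pathway, each with 20 kb on either side, 18 had at least 1 AP-1 locus of C57BL/6 in KLA only (43.4% of protein-coding genes), 16 in both treatments (49.4%) and 5 in Veh only (29.7%). Summed over these genes there were 51 KLA-only, 65 shared and 7 Veh-only loci, to be read beside the 38.0%, 49.0% and 12.9% of all AP-1 loci. In this sum and in that of the receptor genes, a locus in the windows of more than 1 gene counts for each gene. The percentages count each locus only 1 time. The 7 receptor genes had 18 shared, 12 KLA-only and 0 Veh-only loci, with 4 KLA-only loci at Il1r1, the signaling receptor, and 3 at Il1r2, the decoy receptor. Il18, an agonist of the same family, had 6. At the inflammasome genes Nlrp3, which encodes the sensor, had 1 KLA-only and 9 shared loci, and Casp1, the protease that cleaves interleukin-1 beta, had 2 and 4. Among the kinases and adaptors, Irak3, an inhibitor of the pathway, had 10 KLA-only and 1 Veh-only loci, and Traf6 had 1 KLA-only and 2 Veh-only loci. Il36a and Il36b had no locus in any list.

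PU.1 in Veh had a locus at 7 of 7 macrophage marker genes (median 11 per gene, 6 to 17), at 6 of 6 lymphocyte genes (median 2.5, 1 to 8) and at 1 of 3 neutrophil genes (0 to 2). Ly6g and S100a9 had 0. The share of all protein-coding genes with a PU.1 locus was not computed, and the windows differ in length. These counts therefore do not set the marker genes apart from other genes. Peaks near a gene do not measure its expression, and the part of other cells in these lists was not tested.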

How the data were processed

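ChIP-seq of TGEMs was used as 30 peak lists from 34 samples, and for the 4 inputs no list was used here. Per the labels, conditions were strain, genotype, factor and treatment. Reads had been aligned by Bowtie2 (mm10, or for BALB/cJ a strain genome with positions shifted to mm10), peaks found by HOMER over input, and only those under an IDR of 0.05 kept, leaving 1 list per condition. The count deposited by the authors for each peak is a whole number not scaled to depth, and how replicates were combined is not stated. The score deposited by the authors is a scaled IDR and was not used. The sum of counts ranged from 0 to 13809143 per list.

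Peaks were joined and annotated with GENCODE vM21 in Python 3.11.15 (numpy 2.4.6, pandas 2.3.3, scipy 1.17.1, matplotlib 3.10.9). The members, motifs, marker and pathway lists were chosen with earlier results of these data known. Named elements were the element nearest each start within 1 kb and, per gene, the 5 elements with peaks in the most lists. Sequences came from RefSeq GRCm38. The joining, the motif search and the intervals were tested on simulated data. Alternatives were centres within 100 bp, flanks of 10 and 50 kb, the upper 50% of each list by count, lists shortened to the same length, the central 100 bp and the ratio of summed counts. Variants between the strains and the input reads were not analysed here.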

Additional observations from a re-analysis of the deposited data

Results flagged for a closer look

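At 4 elements a factor had a peak in KLA only in wild-type C57BL/6 and in Veh only in BALB/cJ. For ATF3, Il1rn +11.2 kb had a count of 45 in KLA of C57BL/6 (82.7%) and 21 in Veh of BALB/cJ (83.2%). Il1rn +9.5 kb had 51 (74.5%) and 16 (96.5%). ATF3 of PPARg-KO C57BL/6 cells had Veh peaks at both elements, with counts of 21 and 18. For Jun, Il1b +10.8 kb had 34 in KLA of C57BL/6 (40.3%) and 38 in Veh of BALB/cJ (32.0%). Il1b -9.2 kb had 24 (69.3%) and 23 (71.1%). All but the Jun peaks at Il1b +10.8 kb were thus in the weaker part of their lists. With 1 list per condition the difference between the strains was not tested. At Il1b +10.8 and -9.2 kb ATF3 and JunD had KLA peaks in both strains.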

How the results depend on the processing

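With the strongest 50% of each list, 36 elements were left, elements summed over factors in both treatments of C57BL/6 fell from 56 to 31 and those in KLA only from 114 to 69, and in BALB/cJ those in Veh only went from 10 to 3 and those in KLA only from 37 to 19. With lists of equal length the KLA-only elements of C57BL/6 numbered 58 and the Veh-only elements 12, again without a share of all loci beside them. In the central 100 bp CEBP matches went from 7 to 4, PU.1 from 5 to 2 and IRF from 2 to 1. Centred on the ratio of summed counts, the median of members turned from 0.22 to -0.24 for ATF3, from 0.79 to -0.0391 for FosL2 (1 element) and from 0.32 to -0.28 for JunD. Of 86 KLA over Veh ratios of members, 50 had a counting interval that excluded 0. On summed counts 34 of these kept that and 16 did not. Ratios that excluded 0 on summed counts alone are not in this tally. No share of all shared loci stands beside it, so it does not set the members apart. With a flank of 50 kb Il1rn had 25 elements in place of 14, while a flank of 10 kb, and centres within 100 bp in place of an overlap, kept the counts within 1.5 times. The cause of these changes beyond shorter lists and windows was not tested. No paired analysis was possible because each condition has 1 list and the lists carry no replicate numbers, and for the same reason no replicate could be left out. The lowest count of a list ranged from 11 to 120 tags, and the part of depth in which weak peaks were listed was not tested.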
